A study of Mus musculus with 4 samples.

Results

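Notch signaling was examined in primary osteocyte cultures through 10 genes chosen by symbol: the receptors Notch1, Notch2, Notch3 and Notch4, the ligands Jag1 and Jag2, the nuclear effector Rbpj, and the target genes Hes1, Hey1 and Heyl. These were 10 of the 37411 genes in the count table, and they were picked by name, not by a threshold on a measured value. Osteocytes of KO mice, which lack PPARα in all tissues, were compared with osteocytes of WT mice, to find which transcripts depend on this nuclear receptor for fatty acids. RNA was sequenced in 4 libraries, 2 KO and 2 WT, labelled as biological replicates.

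Both genotypes were described in the labels as C57BL/6, aged 5 months, with femoral osteocytes grown ex vivo for 6 days and no treatment. The methods instead name 129S4/SvJae as the background of the KO line and give a higher age and a longer culture, and the authors' own comparison names DMSO for both genotypes. A difference of genetic background between KO and WT mice therefore cannot be told apart from the loss of PPARα. In the KO allele a neomycin resistance cassette replaces a stretch of the coding sequence and the deletion is global, so bone marrow and blood cells carry it as well as osteocytes. The cultures came from an osteocyte-enriched digestion fraction, not from sorted cells.

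Notch receptors span the membrane and are activated by Jagged or Delta-like ligands on a neighbouring cell. Activation leads to cleavage of the receptor, and the freed intracellular part enters the nucleus, binds the DNA-binding protein RBPJ and switches on Hes and Hey genes, which encode transcriptional repressors. In bone, Notch signaling is known for restraining osteoblast differentiation and for its action in osteocytes on bone remodeling. RNA levels report on the components and targets of the pathway, not on receptor cleavage itself.

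Library totals lay between 25136628 and 27496137 counts, and 13571 genes, 9 of the 10 Notch genes among them, had enough counts to be tested. By the quasi-likelihood test of edgeR, 0 of the 13571 had an adjusted p under 0.05 (smallest adjusted p = 0.902) and 732 (5.39%) an unadjusted p under 0.05, while 50 passed with DESeq2. Ppara, the targeted gene, had 15 and 9 counts in KO and 16 and 13 counts in WT libraries, which does not test the genotype, since the allele can leave transcripts. The osteocyte markers Sost and Fgf23 were at 0 in all libraries. Summed over 7 osteocyte markers, the level was 79.6 and 39.4 CPM (counts relative to the TMM-scaled library total) in KO and 226 and 227 CPM in WT libraries. This sum was mostly Pdpn, at a mean of 54.0 CPM in KO and 199 CPM in WT. The 4 osteocyte markers tested, Pdpn among them, all had lower fitted levels in KO. All 14 macrophage markers had higher fitted levels in KO cultures, with sums of 29479 and 24446 CPM in KO and 19048 and 11270 CPM in WT libraries. Fitted levels were lower in KO for 9 of 10 osteoblast markers, 8 of 9 mural and 6 of 8 endothelial markers tested, and higher for 6 of 8 osteoclast and 4 of 4 adipocyte markers tested. The summed osteoclast markers went the other way, at 724 and 592 CPM in KO and 1113 and 726 CPM in WT libraries. Ctsk and Atp6v0d2 were the osteoclast markers with lower fitted levels in KO. Only 2 of 9 lymphocyte and neutrophil markers were tested, 1 in each direction. Over all genes tested, fitted levels were higher in KO for 6672 and lower for 6899. In bulk RNA, fewer cells of a type and less RNA per cell cannot be told apart.

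Levels moved with transcript GC content from library to library, which touches the Notch genes directly because they cover a wide range of it. Transcript GC content ran from 43.7% in Rbpj through 48.8% in Jag1, 50.7% in Hes1, 52.6% in Hey1, 53.6% in Notch2, 55.2% in Heyl, 57.1% in Notch1 and 59.6% in Notch3 to 61.2% in Notch4, with Jag2 at 61.9%. To show this range in letters, 90 bases of coding sequence with the GC content nearest to that of the whole transcript are printed for 4 of the genes, 5′ to 3′ on the coding strand, with every G and C in capitals. They come from the GENCODE annotation of GRCm38: Rbpj (chromosome 5, 53466152 to 53657362, plus strand, coding bases 223 to 312, 43.3% GC), Jag1 (chromosome 2, 137081456 to 137116644, minus strand, coding bases 367 to 456, 48.9%), Notch1 (chromosome 2, 26457903 to 26516663, minus strand, coding bases 121 to 210, 56.7%) and Notch4 (chromosome 17, 34564268 to 34588503, plus strand, coding bases 43 to 132, 61.1%).
Rbpj: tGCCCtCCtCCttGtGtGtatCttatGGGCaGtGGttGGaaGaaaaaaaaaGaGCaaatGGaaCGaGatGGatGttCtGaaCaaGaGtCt
Jag1: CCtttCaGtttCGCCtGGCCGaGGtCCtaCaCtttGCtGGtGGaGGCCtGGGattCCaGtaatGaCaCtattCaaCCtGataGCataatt
Notch1: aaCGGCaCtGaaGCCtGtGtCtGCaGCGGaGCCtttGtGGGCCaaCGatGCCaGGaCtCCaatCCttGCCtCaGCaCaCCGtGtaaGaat
Notch4: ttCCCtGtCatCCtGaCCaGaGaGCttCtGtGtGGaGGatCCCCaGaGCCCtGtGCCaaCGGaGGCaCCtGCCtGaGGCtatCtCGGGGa

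Levels were compared between genes in TPM, which divides by transcript length. Averaged over the 4 libraries, Rbpj was at 41.2 TPM, Notch2 at 30.4, Jag1 at 19.2, Hes1 at 16.4, Notch1 at 8.23, Notch3 at 6.18, Notch4 at 1.45, Hey1 at 0.538, Heyl at 0.218 and Jag2 at 0.192 TPM. The ranges over libraries overlapped for every pair of neighbours in this order except Notch2 and Jag1. Thus 6 of the 10 genes were above 1 TPM in all 4 libraries, and Hey1, Heyl and Jag2 stayed under 30 counts in each library.

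**Figure D1:**
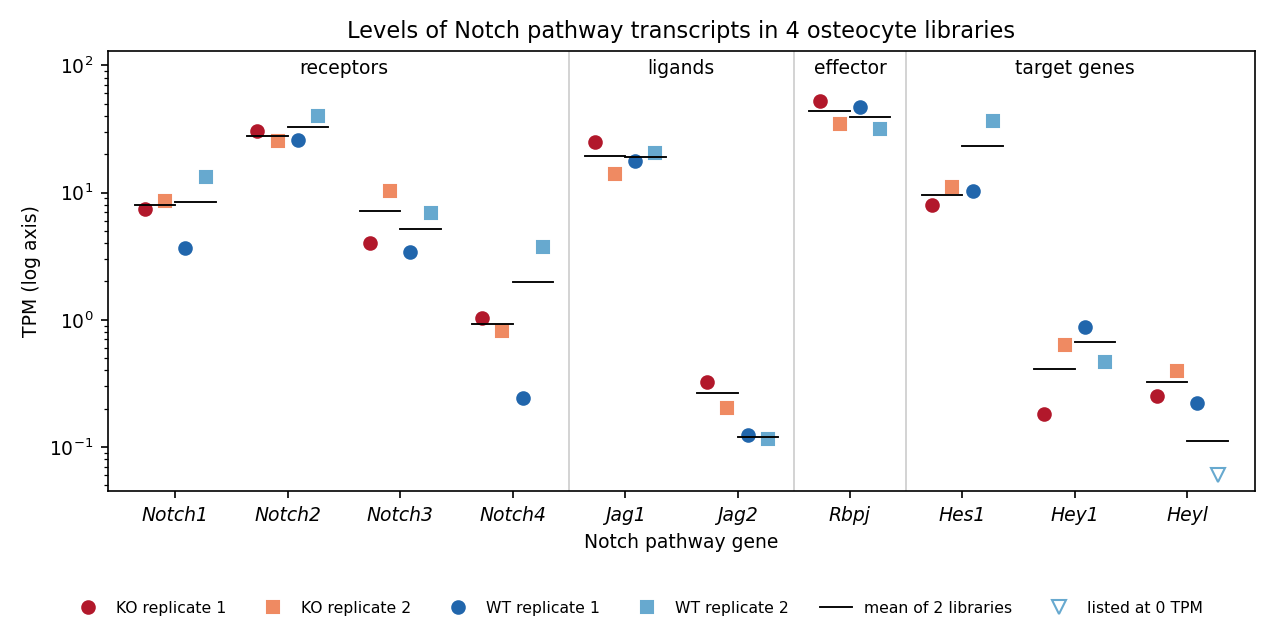
TPM of the 10 Notch pathway genes (log axis) in each library, grouped by role, with KO libraries in red and orange, WT libraries in blue and lines at the mean of the 2 libraries of a genotype. In Notch1 and Notch4 both KO libraries lay between the WT libraries, and Heyl was listed at 0 TPM in WT replicate 2 (open triangle).

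Among the receptors, Notch2, the receptor best known in bone from the skeletal disorder Hajdu-Cheney syndrome, was the most abundant in every library. It was at 30.3 and 25.5 TPM in KO and 25.6 and 40.0 TPM in WT replicates 1 and 2. In CPM it was at 138 and 120 in KO and 100.5 and 172 in WT libraries, so both KO libraries lay between the WT libraries on that scale, and the log2 fold change of KO over WT was -0.08 (standard error 0.362, 95% interval -1.01 to 0.84, adjusted p = 1.00, edgeR). Notch2 (chromosome 3, 98013527 to 98150361) made up 70.9% and 56.3% of the summed TPM of the 4 receptors in KO and 77.8% and 62.6% in WT libraries. The difference of -6.62 percentage points was smaller than the spread within a genotype (exact two-sided permutation test, p = 0.667, where 2 against 2 libraries allow no p under 0.3333).

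Notch1, which acts in early cell fate decisions and in osteoblasts and osteocytes, was at 7.44 and 8.61 TPM in KO and 3.66 and 13.2 TPM in WT replicates 1 and 2. The KO libraries again lay inside the range of the WT libraries, which differed from each other 3.96-fold in CPM, and the log2 fold change was 0.06 (standard error 0.668, 95% interval -1.64 to 1.76). Notch1 overlaps other annotated genes on the opposite strand and shared 9.11% of its 50-base words with other genes, so part of its counts is uncertain where strand was not used. The direction of its fold change was -0.00886 where counts were scaled only by library size and, without single libraries, ran from -0.61 without WT replicate 1 to 1.33 without WT replicate 2 (adjusted p = 0.0694, edgeR).

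Notch3, a receptor of vascular smooth muscle cells and pericytes (chromosome 17, 32120820 to 32166852), was at 3.97 and 10.4 TPM in KO and 3.42 and 6.95 TPM in WT replicates 1 and 2. In both genotypes replicate 2 was above replicate 1, and the libraries of the genotypes overlapped. The log2 fold change was 0.62 (standard error 0.646, 95% interval -1.02 to 2.27), and it was -0.26 without KO replicate 2 and 1.28 without WT replicate 2. Notch3 took 9.30% and 22.9% of the receptors' TPM in KO and 10.4% and 10.9% in WT libraries.

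Notch4, a receptor of endothelial cells, had 77 and 60 counts in KO and 16 and 261 counts in WT replicates 1 and 2. The WT libraries, 16.8-fold apart in CPM, enclosed the KO libraries, which were 1.21-fold apart. The log2 fold change was -0.99 (standard error 1.19, 95% interval -4.02 to 2.04), a value that limma voom turned to 0.12. Leaving out WT replicate 1 gave -1.90 (adjusted p = 0.0388, edgeR) and leaving out WT replicate 2 gave 2.11 (adjusted p = 0.107), so the direction for Notch4 rested on which WT library was kept. The summed level of 11 endothelial markers was 44.9 and 53.8 CPM in KO and 30.4 and 47.3 CPM in WT libraries. This sum was mostly Vwf, at a mean of 36.1 CPM in KO and 18.9 CPM in WT, while 6 of the 8 tested markers had negative log2 fold changes. None of the markers was at 0 throughout, but Tek, Erg and Cldn5 did not pass the count filter. Cldn5 had 0 and 1 counts in KO and 0 and 0 counts in WT libraries. Tie1 had 9 and 13 counts in KO and 13 and 10 in WT, and Kdr 127 and 67 in KO and 196 and 117 in WT. The part of endothelial cells in the Notch4 counts was not tested.

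All 4 receptors had their lowest CPM in WT replicate 1. The summed TPM of the receptors was 42.8 and 45.3 in KO and 33.0 and 63.9 in WT replicates 1 and 2, so that the KO cultures again lay between the WT cultures. Over all genes tested, 32.1% had both KO libraries between the WT libraries in CPM, and among the 9 Notch genes there were 3, each of them a receptor.

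Of the ligands, Jag1, a Jagged ligand known in the osteoblast lineage for its action on neighbouring blood and bone cells, was at 24.8 and 14.1 TPM in KO and 17.8 and 20.3 TPM in WT replicates 1 and 2. Here the KO libraries enclosed the WT libraries, and the log2 fold change was 0.18 (standard error 0.384, 95% interval of the fold itself 0.577 to 2.23). Without KO replicate 1 it was -0.26 and without KO replicate 2 it was 0.52. Jag1 supplied 97.7% and 94.1% of the summed TPM of Jag1, Jag2, Dll1, Dll3 and Dll4 in KO and 97.2% and 94.3% in WT libraries. Nearly all RNA of these 5 ligands was thus Jag1 in both genotypes. The sum left out Dlk1 and Dlk2, which the wider list also counts as ligands. Dlk2 was at 1.08 and 3.68 TPM in KO and 0.523 and 6.94 TPM in WT replicates 1 and 2.

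Jag2, the other Jagged ligand (chromosome 12, 112907819 to 112929776), had 15 and 9 counts in KO and 5 and 5 counts in WT libraries and did not pass the count filter. Both KO libraries were above both WT libraries. In a fit of all genes without the filter the log2 fold change was 1.27 (standard error 0.736, adjusted p = 0.908, edgeR), which did not pass. The share of Jag1 in the TPM of Jag1 and Jag2 was 98.7% and 98.6% in KO and 99.3% and 99.4% in WT libraries (exact permutation p = 0.333, the smallest that this design allows, and 0.667 adjusted over the 2 shares tested).

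Rbpj, the DNA-binding protein on which the signal of all 4 receptors converges, was at 52.3 and 34.4 TPM in KO and 46.6 and 31.4 TPM in WT replicates 1 and 2. In both genotypes replicate 1 was the higher one, and the libraries overlapped. The log2 fold change was 0.33 (standard error 0.344, 95% interval -0.55 to 1.20, adjusted p = 1.00, edgeR), and it stayed positive under all 12 alternatives, from 0.02 without KO replicate 1 to 0.58 without KO replicate 2. Rbpj shared 9.69% of its 50-base words with the pseudogene Rbpj-ps3, so its counts carry some uncertainty of assignment.

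Hes1, a repressor of differentiation (chromosome 16, 30064384 to 30067796, plus strand), was the most abundant among Hes1, Hey1 and Heyl. It had 134 and 181 counts in KO and 150 and 566 counts in WT replicates 1 and 2. In TPM this was 8.04 and 11.1 in KO and 10.3 and 36.2 in WT libraries, so WT replicate 2 stood apart and WT replicate 1 lay between the KO libraries. Hes1 had the smallest p of the 9 genes tested, with a log2 fold change of -1.14 (standard error 0.712, 95% interval -2.95 to 0.67, adjusted p = 1.00, edgeR, 2.21-fold lower in KO). Without WT replicate 1 the value was -1.80 (adjusted p = 0.0287, edgeR), and without WT replicate 2 it was 0.10 (adjusted p = 0.916). Leaving out WT replicate 1 passed 818 genes (6.03% of those tested, and 2.7% as lower in KO), the background for the 2 of 9 Notch genes that passed there, Hes1 and Notch4. The direction of the Hes1 value thus rested on WT replicate 2. Fits without a WT library took their spread from the KO replicates. These were closer together than the WT replicates in 77.1% of all genes tested and in 5 of the 9 Notch genes.

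Values of other cell types differed between the same libraries. In WT replicate 2, which had the highest level of Hes1, Notch1, Notch2 and Notch4, the 14 macrophage markers had their lowest sum and 10 markers of mural cells (pericytes and smooth muscle) their highest, at 3897 and 2831 CPM in KO and 2446 and 5700 CPM in WT libraries. The mural sum was carried by the contractile genes Acta2 and Tagln and by Pdgfrb, whereas the pericyte marker Rgs5 had 25 and 42 counts in KO and 85 and 4 counts in WT libraries, its lowest in WT replicate 2. None of the macrophage or mural markers was at 0 in all libraries. The part of these cells in the levels of the Notch genes was not tested.

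Hey1 and Heyl, the other hairy-related repressors measured, were close to the floor of the assay. Hey1 (chromosome 3, 8663359 to 8667256) had 5 and 17 counts in KO and 21 and 12 counts in WT libraries, which overlapped, with a log2 fold change of -0.51 (standard error 0.815). Heyl (chromosome 4, 123233556 to 123249875) had 13 and 20 counts in KO and 10 and 0 counts in WT libraries. It was the only one of the 9 genes tested whose libraries did not overlap between genotypes in CPM, against 33.2% of all genes tested. Its log2 fold change was 1.76 with a 95% interval of -1.51 to 5.03 (adjusted p = 1.00, edgeR), and the count of 0 in WT replicate 2 allows up to 3 counts. Hes1 took 94.9% and 91.5% of the TPM of the 3 target genes in KO and 90.4% and 98.7% in WT libraries.

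Taking the 9 tested genes as a list, 5 had positive and 4 had negative log2 fold changes (6672 and 6899 of all genes tested), with a median of 0.06 against -0.01 over all genes tested. None had an unadjusted p under 0.05, against 5.39% of all genes, and none passed an adjusted p of 0.05 with DESeq2, the likelihood ratio test, limma voom or the fits with a replicate block or a GC offset. At an unadjusted p under 0.05, Notch4, Hes1 and Heyl passed once WT replicate 1 was left out (21% of all genes did so) and Notch1, Notch3 and Notch4 once WT replicate 2 was left out (22.6% of all genes). For 7 of the 9 genes the sign of the fold change turned when some single library was left out, the exceptions being Heyl and Rbpj. The sign of Heyl could hardly turn, since both KO libraries were above both WT libraries. The intervals left room for changes of more than 2-fold in either direction for Notch1, Notch3, Notch4, Hey1 and Heyl, so these 4 libraries do not show that the genotypes were alike.

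**Figure D2:**
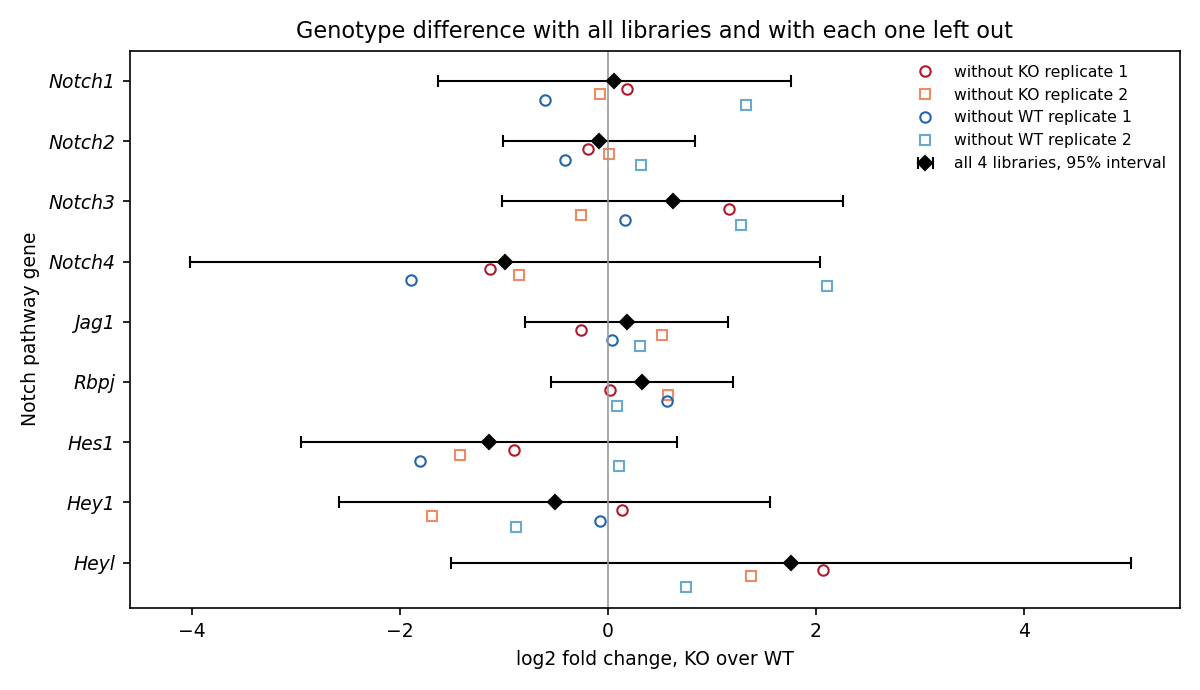
Log2 fold change of KO over WT for the 9 tested Notch pathway genes, with diamonds and bars for the fit of all 4 libraries and its 95% interval, and open symbols for the fits that leave out 1 library. Every interval includes 0, and for Notch4 the value was -1.90 without WT replicate 1 and 2.11 when WT replicate 2 was left out instead. The fit of Heyl without WT replicate 1, at 7.07, is not drawn because it lies beyond the axis. The remaining WT library had 0 counts of Heyl.

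The gap of the receptors between the WT replicates had the direction of the trend with GC content, while in KO the receptors were mixed. Across 13167 genes, the log2 ratio of replicate 1 over replicate 2 followed GC content with a Spearman's rho of -0.602 in KO and -0.730 in WT, and across the 9 Notch genes with a rho of -0.35 in KO and -0.517 in WT (genes of one library share its depth and composition, so no p is given). Notch1 had a log2 ratio of -1.98 between WT replicates 1 and 2, where genes of like GC content had a median of -1.03. For Notch3 the ratio was -1.15 beside a median of -1.66, and for Notch4 it was -3.90 beside the same -1.66. Between KO replicates 1 and 2 Notch4 had a log2 ratio of 0.27 where its GC class had a median of -0.63, and Notch2 had 0.20 beside -0.08, so these receptors did not follow the trend there. Hes1 also departed from it between the WT replicates: its ratio was -1.94 where the median of its GC class was -0.06.

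**Figure D3:**
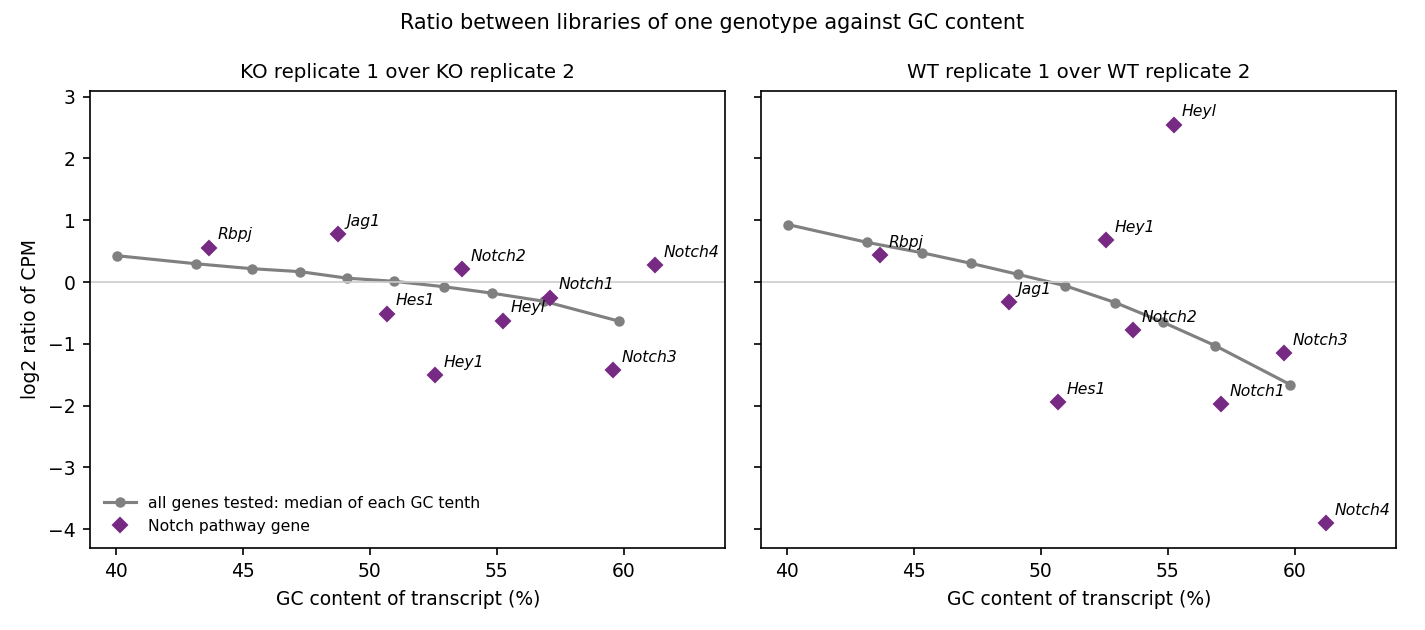
Log2 ratio of CPM between replicate 1 and replicate 2 of KO (left) and WT cultures (right) against transcript GC content in percent, with the medians of 10 classes of all genes by GC content (grey line) and the 9 Notch pathway genes (diamonds). In WT the grey line runs from 0.93 in the class of lowest GC content to -1.66 in that of highest, and Hes1 lies far below it at -1.94.

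After the trend of each library with GC content was removed, the absolute log2 gap between the WT replicates was 0.88 for Notch1, 0.31 for Notch2, 0.45 for Notch3 and 1.99 for Notch4. It was smaller than before the step in all 4 receptors, in 6 of the 9 Notch genes and in 67.4% of all genes tested. The trend was fitted to these same libraries. The gap between the KO replicates was larger after the step in Notch4, at 1.04 against 0.27 before it, and in Notch2, at 0.35 against 0.20, and smaller in Notch1 and Notch3. Between the WT replicates the gap also grew in Jag1, Hey1 and Heyl, so the step did not narrow the spread of every gene. Only Notch1 and Notch4 then still had their lowest level in WT replicate 1. For Hes1 the gap was 1.87 after the step and 1.94 before it, so WT replicate 2 remained the high library for Hes1 on both scales. With a GC offset in edgeR's fit the log2 fold changes were 0.02 for Notch1, -0.16 for Notch2, 0.25 for Notch3, -0.62 for Notch4, 0.43 for Rbpj and -1.14 for Hes1, and each sign was that of the fit without the offset.

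**Figure D4:**
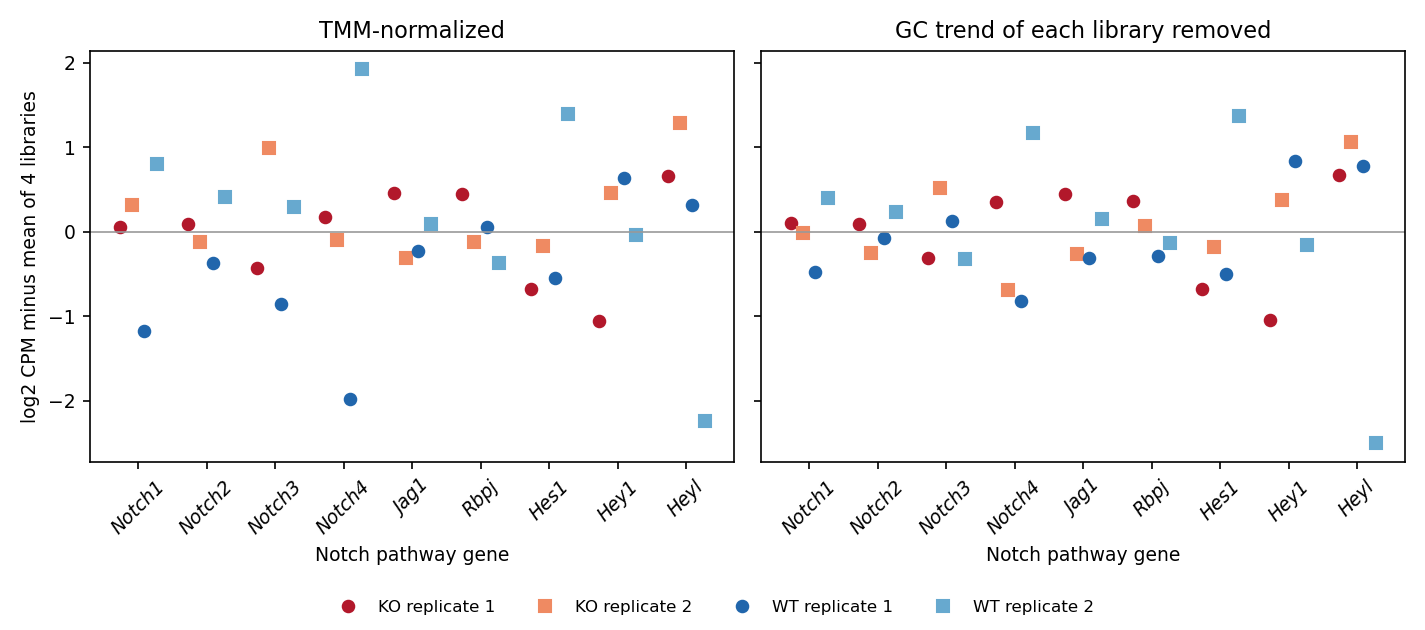
Log2 CPM of the 9 tested Notch pathway genes minus the mean of the 4 libraries, before (left) and after (right) each library's trend with GC content was removed, with KO libraries in red and orange and WT libraries in blue. The receptors drew closer together between WT replicates, while Hes1 in WT replicate 2 stayed above the other libraries.

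The genes whose pattern over the 4 libraries lay nearest to that of Hes1 were Pgbd5, Tyro3 and Syde1, at Euclidean distances of 0.0708, 0.105 and 0.154 in centred log2 CPM. Tyro3, a receptor tyrosine kinase, had 214 and 282 counts in KO and 258 and 902 counts in WT libraries, again with WT replicate 2 as the only high library. The nearest Notch gene was Notch1 at a distance of 1.24, rank 2024 of all genes, so no receptor or other target followed Hes1 closely.

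The wider pathway was read from a list of 55 other genes, 45 of which were tested. Of these, 31 had positive and 14 had negative log2 fold changes (6672 and 6899 of all genes tested), with a median of 0.13 against -0.01 over all genes tested. The mean level of the list varied between replicates of a genotype with a standard deviation of 0.20 on the log2 scale. Of the 45, 11 had libraries that did not overlap in CPM, all higher in KO (24.4% of the list, against 17.1% of all genes tested for this direction). Only Lfng and Mfng had an unadjusted p under 0.05, both with higher levels in KO, where 2.81% of all genes did so in this direction, and none of the 45 passed an adjusted p of 0.05.

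Lfng and Mfng encode Fringe enzymes, which add sugars to the extracellular part of Notch receptors and thereby alter which ligands they answer to. Lfng (chromosome 5, 140607320 to 140615545, plus strand) was at 52.6 and 82.4 TPM in KO and 19.6 and 26.4 TPM in WT libraries, so both KO cultures were above both WT cultures and the TPM in KO was above that of any of the 4 receptors. Its log2 fold change was 1.71 (standard error 0.407, 95% interval 0.68 to 2.75, adjusted p = 0.902, edgeR, 3.28-fold higher in KO). It stayed positive under all 12 alternatives, from 1.30 with the GC offset to 2.02 without KO replicate 1. With both KO libraries above both WT libraries, leaving out a single library could hardly turn this sign. No fit of all 4 libraries passed an adjusted p of 0.05. The transcript, at 58.8% GC, is in the class of highest GC content. Removing the GC trend took the log2 ratio of KO replicate 1 over WT replicate 1 from 1.63 to 0.82. That of KO replicate 2 over WT replicate 2 went from 1.76 to 1.88. The 14 macrophage markers, with sums of 29479 and 24446 CPM in KO and 19048 and 11270 CPM in WT libraries, were higher in the same KO cultures, and their part in the Lfng difference was not tested.

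Mfng (chromosome 15, 78755882 to 78773475, minus strand) had 101 and 122 counts in KO and 43 and 57 counts in WT libraries. The libraries did not overlap, and the log2 fold change was 1.20 (standard error 0.473, adjusted p = 0.927, edgeR, 2.30-fold higher in KO). Its unadjusted p was 0.0499972 in the quasi-likelihood model of edgeR (adjusted p = 0.927), at the edge of the rule by which it is named. It was above 0.05 with library sizes alone, with the GC offset, where the log2 fold change was 0.85, with the block and the offset together, and without either KO library or WT replicate 1. The transcript, at 58.1% GC, is in the class of highest GC content. Mfng lies 6.96 Mb from Ppara on the same chromosome, so sequence around the targeted locus that differs in strain of origin cannot be told apart from the genotype there. Rfng, the remaining Fringe gene, had 376 and 469 counts in KO and 255 and 522 counts in WT libraries, and its log2 fold change of 0.17 (standard error 0.482) was within the spread of the replicates.

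By role, 9 of 10 genes of receptor processing (the proteases and γ-secretase subunits that cleave the receptor) had positive log2 fold changes, against 6672 of the 13571 genes tested. Their median was 0.19, with no unadjusted p under 0.05. Among them the γ-secretase genes Psen2, Aph1a and Psenen had both KO libraries above both WT libraries in CPM. Of 12 tested genes of endocytosis and turnover, 7 were positive and 5 negative, with a median of 0.07. The 8 nuclear coactivators were split into 6 positive and 2 negative, with a median of 0.02, and the 7 corepressors into 4 and 3, with a median of 0.13.

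Dll1 and Dlk2 were the only other ligands tested, with log2 fold changes of -0.57 and -0.52 and standard errors of 0.854 and 1.26. Of 7 further genes listed as targets only Hes6 could be tested, with 434 and 870 counts in KO and 296 and 806 counts in WT libraries. Hes3 and Hes5 had no counts in any library. Hes6 thus had its higher library in replicate 2 of both genotypes, with a log2 fold change of 0.29 (standard error 0.641). In TPM it was at 28.6 and 58.9 in KO and 22.3 and 56.7 in WT libraries, above Hes1 in each library. Whether Hes6 responds to Notch in these cultures was not tested, so its level is not read as Notch output. With WT replicate 2 left out, Furin, Lfng and Mib2 were among the genes of the list that passed in edgeR at an adjusted p of 0.05, all higher in KO, where 3.27% of all genes tested passed in either direction. Furin and Mib2 are named because they passed there, after their values were seen.

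**Figure D5:**
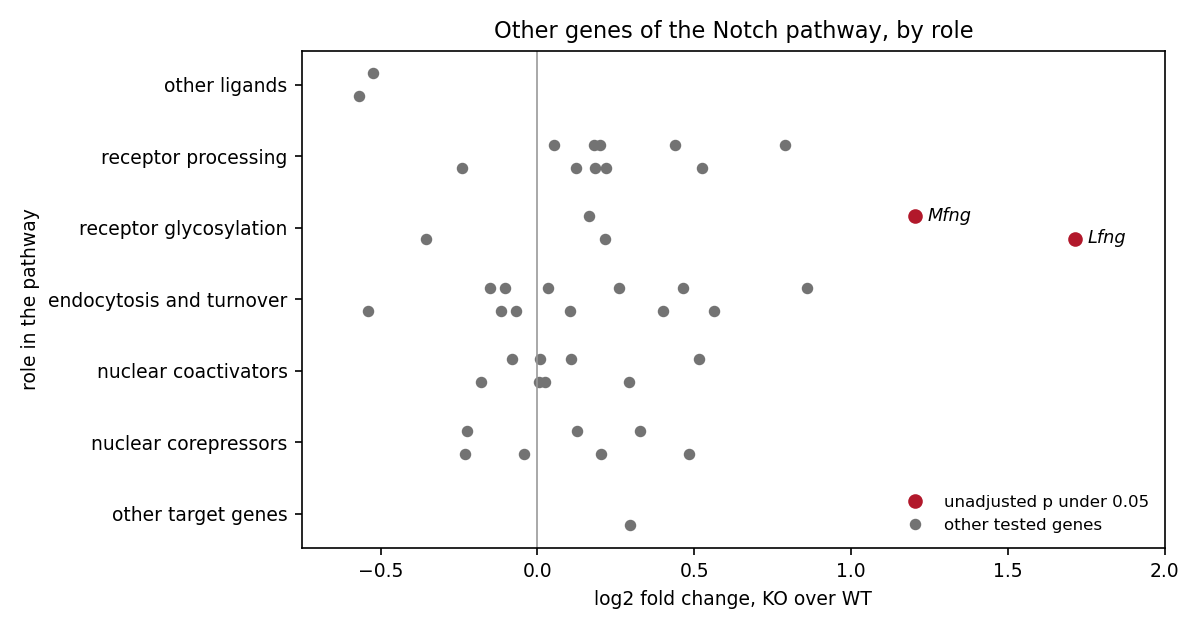
Log2 fold change of KO over WT for the 45 tested genes of the wider Notch list, 1 point a gene, in rows by role. Lfng at 1.71 and Mfng at 1.20 (red) are the only genes with an unadjusted p under 0.05. Right of 0 lie 9 of the 10 genes of receptor processing, where 6672 of all 13571 genes tested have positive values.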

How the data were processed

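The authors deposited raw counts and TPM, made from reads trimmed by Trimmomatic 0.35 and counted by HTSeq 0.9.1 on mm10; the aligner and strand setting are not given in the sources used here. Deposited TPM values were a fixed multiple of the counts of a gene within 0.0056% over 4067 genes. The authors' normalized counts and comparison table, which holds their DESeq2 1.16.1 fold changes and p-values, were not used. Genes were kept by filterByExpr (minimum count 10), scaled by TMM and compared between genotypes with edgeR 4.0.16 (quasi-likelihood, Benjamini-Hochberg over 13571 genes, R 4.3.3) with no covariate, and the method was tested on simulated data. The log2 fold change is KO over WT. Library totals were 27496137 and 25136628 counts in KO and 25462028 and 25687940 in WT. GC content came from the longest protein-coding GENCODE transcript and was known for 13167 genes; its trend in each library was fitted by lowess with a span of 0.3. TPM shares were compared by exact permutation.

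Alternatives were DESeq2 1.42.0, library sizes alone, the likelihood ratio test, limma 3.58.1 with voom, no filter, a replicate block, a GC offset, the block with the offset, and each library left out. Named were the 10 Notch genes, Ppara, genes of the wider list at an unadjusted p under 0.05 and the 3 genes nearest to the tested Notch gene of smallest p. Members and lists, 8 marker lists included, were chosen with earlier results of these data known. The p-values measure only the spread between these libraries. Some results for single genes of the lists are not reported here.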

Additional observations from a re-analysis of the deposited data

How the results depend on the processing

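Of all genes tested, 0 passed with edgeR's quasi-likelihood test, 50 with DESeq2 (32 higher and 18 lower in KO), 28 with the likelihood ratio test, 1 with a replicate block, and from 1 to 818 when single libraries were left out, the highest being 818 (WT replicate 1 left out) and 444 (WT replicate 2 left out). Of the Notch genes 0 to 2 passed when single libraries were left out, and of the wider list 0 to 4, while no other alternative passed any. The replicate block passed no Notch gene. The numbers of the replicates do not pair the libraries by the labels; replicate differences of KO and WT correlated across 13571 genes (r = 0.49, and 0.19 after the GC trend was removed), from 2 pairs only. Scaling by library sizes alone moved the median of all genes by about 0.09 on the log2 scale and gave -0.00886 for Notch1, and limma voom gave 0.12 for Notch4; the cause was not tested. Without single libraries the log2 fold change ranged from -0.61 to 1.33 for Notch1, -0.41 to 0.32 for Notch2, -0.26 to 1.28 for Notch3, -1.90 to 2.11 for Notch4, -0.26 to 0.52 for Jag1, -1.80 to 0.10 for Hes1, -1.69 to 0.13 for Hey1, -0.59 to 0.0553 for Ppara, -1.90 to 0.0817 for Pgbd5 and -1.62 to 0.0903 for Syde1. A lone library of a genotype was assumed to vary like the others. For most genes this did not hold: the gap between WT replicates exceeded that between KO replicates in 77.1% of genes. The median absolute log2 gap was 0.672 in WT and 0.304 in KO. Fits without a WT library took their spread from the closer KO pair, so their p-values can be too small and their numbers of passing genes too high. Heyl, Rbpj, Lfng, Mfng and Tyro3 kept their sign under all 12 alternatives. For Heyl, Lfng and Mfng both KO libraries were above both WT libraries, so leaving out a single library could hardly turn the sign. The other alternatives refit the same libraries. Lfng and Mfng were named by their p-values in these data, and Tyro3 by its nearness to Hes1. Depth limited Hey1, Heyl and Jag2, at under 30 counts in each library.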
